A study of Mus musculus and Rattus norvegicus with 60 samples.

Results

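The transcripts of 10 genes of the Bmp (bone morphogenetic protein) pathway were followed by zone, age and bone in the growth plates of mice and rats: the receptor genes Bmpr1a, Bmpr1b, Acvr1 and Bmpr2, the Smad genes Smad1, Smad5 and Smad6, and the target genes Id1, Id2 and Id3. They were taken by symbol, ignoring case. All 10 were present, of 20155 genes in the mouse table and 15163 in the rat table, and all 10 passed the filter on low values in both species. Bmp ligands bind a type II receptor, such as that encoded by Bmpr2, together with a type I receptor, such as those of Bmpr1a, Bmpr1b and Acvr1. The type I receptor then phosphorylates Smad1 and Smad5, which enter the nucleus with Smad4, and Smad6 inhibits the pathway. The Id genes are direct targets that encode inhibitors of basic helix-loop-helix transcription factors, and Bmp signaling in growth plate cartilage is known to act on both chondrocyte proliferation and hypertrophy.

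The growth plate elongates bone as chondrocytes divide in columns in the proliferative zone (PZ) and then enlarge in the hypertrophic zone (HZ), next to the bone. Both zones were isolated by laser capture microdissection from C57BL/6 mice and Sprague Dawley rats fed ad lib. The groups were proximal tibia from animals of 1 week and 4 weeks and, at 1 week only, proximal forelimb phalanx, each as PZ and HZ, which makes 6 groups per species with 5 libraries each. The mouse 1-week phalanx PZ had 4 libraries, since its replicate 3 has no column in the table. The phalanx is a forelimb bone and the tibia a hindlimb bone, so a difference between bones cannot be told apart from one between limbs. The values are normalized counts, read back from the deposited log2 of the normalized count plus 1, and a difference between groups is on that log2 scale with its standard error (SE) from limma. A gene was called higher or lower at a Benjamini-Hochberg adjusted p under 0.05 over all genes tested in the species, with no minimum fold.

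Between 19725320 and 41881803 reads were counted in genes per mouse library, of which 31.0% to 80.8% fell in the ribosomal RNA precursor gene Rn45s, and between 7817389 and 29033059 per rat library. The median over all tested genes moved by more than 0.1 in 3 of the 7 mouse comparisons of a zone, an age or a bone and in 1 of the 7 rat comparisons. It was -0.15 between the zones of the mouse 1-week tibia, 0.17 between the ages in the mouse tibia HZ, and 0.13 and 0.13 between the bones in the mouse and the rat HZ. All 3 PZ markers (Gdf10, Prelp and Bmp7) were lower in the HZ of each growth plate in both species, and all 4 HZ markers (Col10a1, Bmp2, Mmp13 and Ihh) were higher in both mouse tibias, 3 of 4 in the mouse phalanx, and all 3 that were tested in each rat growth plate. Other cell types also differed between the zones. Of 12 endothelial markers 11 were higher in the HZ of every growth plate of both species. Their summed normalized counts in the 1-week tibia were 217 to 1090.2 in the mouse PZ and 4568 to 19368 in the HZ, and 587 to 860.0 and 2632 to 13831 in the rat. Osteoclast markers summed to 388 to 6430.3 in the mouse 1-week tibia PZ and 40669.8 to 79644 in the HZ, and to 255 to 786 and 7187 to 56818 in the rat. In the rat 1-week tibia PZ, Cldn5 and Acp5 were at 0 in all 5 libraries. The part of these cells in the zone differences below was not tested. In such bulk samples, fewer cells of a type and less RNA per cell cannot be told apart. Replicate 5 of the mouse phalanx HZ stood apart, with a summed PZ marker level of 31021 against a group median of 1509. Replicate 3 of the rat 4-week tibia HZ also stood apart, with the lowest endothelial sum of its group (2814) and the highest PZ marker sum (35089.7), and without it all 5 zone calls of the members in that growth plate were kept.

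Per kilobase of merged exons (GENCODE M21), and as means ± SD over the 29 mouse libraries, Id3 had 356 ± 184 normalized counts, Bmpr2 259.6 ± 73.8, Bmpr1a 243 ± 93.7, Smad5 209 ± 31.1, Smad1 126 ± 42.4, Id1 123 ± 66.5, Acvr1 66.2 ± 23.3, Id2 34.0 ± 14.5, Smad6 14.6 ± 11.4 and Bmpr1b 6.93 ± 7.52. Smad6 and Bmpr1b were thus the least abundant members, and their values carry the largest errors. The spread between libraries includes the differences between groups.

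Mouse gene positions are given on GRCm38, the build of the mm10 alignment. The receptor genes lie at chr14:34410734-34503341 (Bmpr1a, minus strand), chr3:141837136-142169425 (Bmpr1b, minus), chr2:58388644-58567157 (Acvr1, minus) and chr1:59763400-59879014 (Bmpr2, plus). The Smad genes lie at chr8:79338395-79399518 (Smad1, minus), chr13:56703010-56742377 (Smad5, plus) and chr9:63953076-64022059 (Smad6, minus), and the Id genes at chr2:152736251-152737410 (Id1, plus), chr12:25093799-25097140 (Id2, minus) and chr4:136143497-136145755 (Id3, plus).

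Between the zones, Bmpr1a and Bmpr1b transcripts were higher in the PZ wherever a difference was called, while Bmpr2 and Acvr1 were higher in the HZ wherever a difference was called. Among the 10 members, HZ levels in the mouse 1-week tibia were higher for 2 and lower for 4, where 20.4% of all genes were called higher and 23.7% lower. In the mouse 4-week tibia 1 was higher and 3 were lower (all genes, 18.6% and 16.6%), and in the mouse phalanx 4 were higher and 1 was lower (all genes, 17.9% and 17.2%). The rat had 2 higher and 3 lower at 1 week in the tibia (all genes, 22.6% and 19%), 3 and 2 in the 4-week tibia (all genes, 13.5% and 7.82%), and 2 and 1 in the phalanx (all genes, 22.9% and 17.7%). The median log2 difference of the members, beside that of all tested genes, ran from -0.51 (all genes 0.01) in the rat 1-week tibia to 0.35 (all genes -0.04) in the mouse phalanx. Over the 3 growth plates 15 of 30 mouse values and 13 of 30 rat values were called. With the mean level of the endothelial markers as a covariate 3 mouse and 2 rat values were called, and with marrow markers (B lymphocyte, erythroid and macrophage) 4 and 3. The rat count with marrow markers includes Smad5 in the 1-week tibia, which was not called without them. The endothelial markers themselves followed the zone, so a call lost in that fit cannot be assigned to endothelial cells. The 10 other settings named below are those without marker covariates, and leaving out single libraries is counted apart from them.

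Bmpr1a encodes a type I receptor that mouse cartilage needs, together with Bmpr1b, to form normal growth plates. In the 5 libraries of the mouse 1-week tibia PZ it had 2176, 1965, 1719.6, 1459 and 2425 normalized counts, and in the HZ 1053, 805, 776, 631 and 1406. The HZ libraries were all below the PZ libraries (2.14-fold lower; log2 difference -1.09 ± 0.18 (SE), adjusted p = 1.0e-05). At 4 weeks the mouse tibia PZ had 2087, 2285, 2396, 2629 and 2641 and the HZ 1393, 1191, 1386, 809.8 and 1084. The zones again did not overlap (2.08-fold lower in the HZ; -1.06 ± 0.18, adjusted p = 2.3e-05). The rat 1-week tibia PZ had 1991, 2055, 2043, 1800.3 and 2177 and the HZ 667, 802, 1026, 917 and 919, with no overlap (2.34-fold lower; -1.23 ± 0.18, adjusted p = 1.1e-06). The rat 4-week tibia PZ had 1677, 1847, 2085, 1673 and 1789 and the HZ 1035, 1006, 1552, 1054 and 818, also without overlap (-0.76 ± 0.18, adjusted p = 0.002). In the phalanx the zones overlapped in both species. There the mouse PZ had 1732, 1278, 1257 and 2254 in its 4 libraries and the HZ 1268, 1291, 1158, 1032 and 1112, which was not called (-0.44 ± 0.19, adjusted p = 0.079) but was called without any 1 of 1-week phalanx PZ replicates 2 and 4 (-0.55 to -0.54, adjusted p from 0.045 to 0.0499) and under 2 of 10 other settings (adjusted p from 0.041 to 0.046). The rat phalanx PZ had 1824, 1503, 1665, 2049 and 3580.2 and the HZ 1072, 1407, 1576, 1273 and 1499.7. This lower HZ level was called (-0.58 ± 0.18, adjusted p = 0.0097), and the call was lost without 1-week phalanx PZ replicate 5 (-0.37, adjusted p = 0.054), the library with the highest PZ value. Whether the zone difference was smaller in the phalanx was tested directly: the difference of differences was 0.66 ± 0.27, adjusted p = 0.12 in the mouse and 0.65 ± 0.25, adjusted p = 0.073 in the rat, neither called. The mouse value was called without any 1 of 1-week phalanx PZ replicate 5 and 1-week tibia HZ replicate 5 (0.82 to 0.83, adjusted p from 0.028 to 0.044) and under 1 of 10 other settings (adjusted p = 0.042), and the rat value without any 1 of 1-week phalanx HZ replicate 1 and 1-week phalanx PZ replicate 5 (0.74 to 0.86, adjusted p from 0.0037 to 0.049) and under 2 of 10 other settings (adjusted p from 0.0075 to 0.042).

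Bmpr1b encodes the other cartilage type I receptor and is known for its role in digit and phalanx formation. Its transcript was scarce, and in the mouse it was lower in every HZ library than in every PZ library of the same growth plate. The mouse 1-week tibia PZ had 46.5, 44.2, 92.3, 45.4 and 115 normalized counts and the HZ 0, 3.94, 41.3, 0 and 2.60, all below the PZ. At 4 weeks the PZ had 69.6, 83.4, 43.4, 44.3 and 127 and the HZ 3.40, 4.76, 7.97, 5.88 and 0. In the phalanx the PZ had 59.1, 68.2, 47.2 and 180.4 and the HZ 5.71, 26.3, 7.45, 0 and 23.3. The lower HZ level was called in all 3 mouse growth plates, with log2 differences of -4.09 ± 0.88, adjusted p = 0.00027 in the 1-week tibia, -3.98 ± 0.88, adjusted p = 0.0005 in the 4-week tibia and -3.24 ± 0.93, adjusted p = 0.0064 in the phalanx. These values depend on the 1 added to each count, since 4 mouse HZ libraries were at 0. In the rat the 1-week tibia PZ had 34.7, 58.1, 72.4, 25.3 and 42.2 and the HZ 13.8, 3.82, 8.94, 71.2 and 38.6, which overlapped and was not called (-1.29 ± 0.75, adjusted p = 0.17). The rat 4-week tibia PZ had 28.3, 2.79, 33.1, 18.9 and 18.7 and the HZ 6.31, 0, 0, 0 and 0. Only PZ replicate 2 lay within the HZ range, and the lower HZ level was called (-3.53 ± 0.75, adjusted p = 0.00069), and the call was lost with a pseudocount of 16 in place of 1 (-1.02, adjusted p = 0.064). The rat phalanx had 196, 85.1, 65.5, 70.2 and 35.5 in PZ libraries and 20.4, 139, 39.2, 46.0 and 17.2 in HZ libraries (-0.97 ± 0.75, adjusted p = 0.31).

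**Figure D1:**
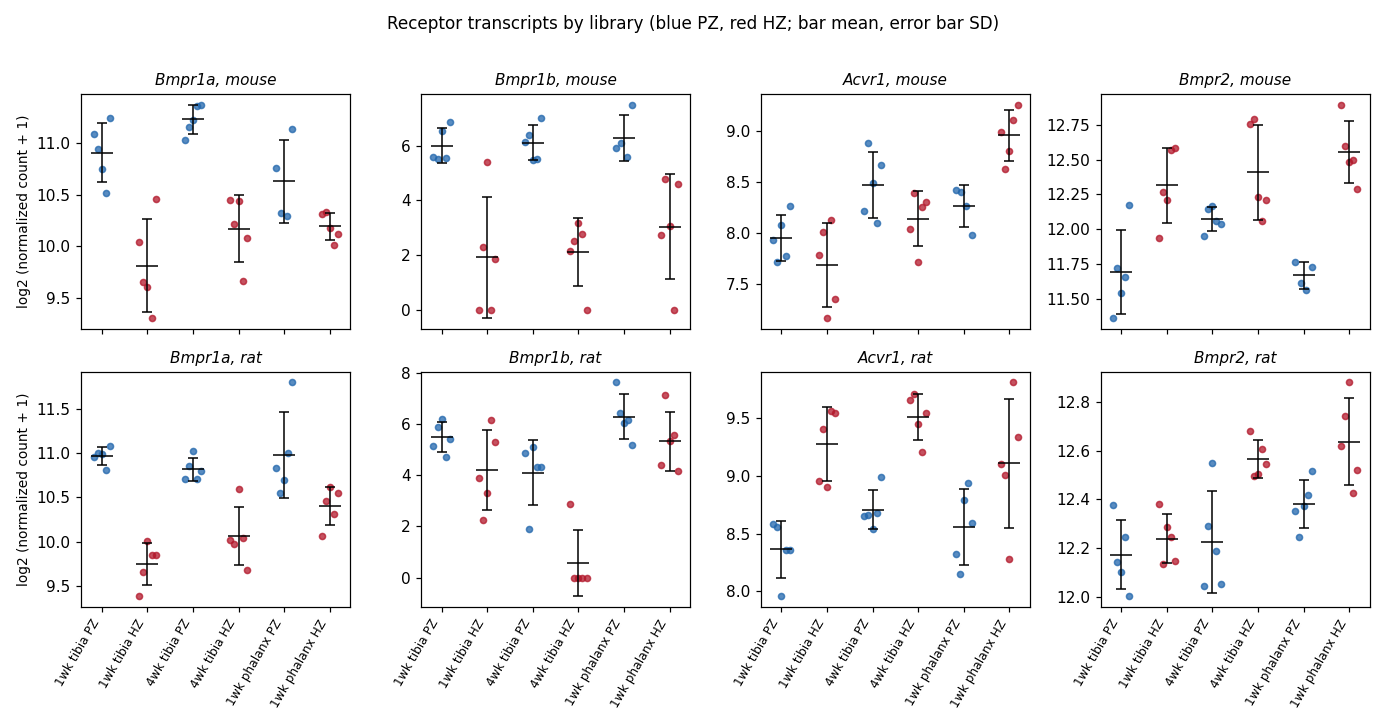
Log2 of the normalized count plus 1 for the receptor genes Bmpr1a, Bmpr1b, Acvr1 and Bmpr2 in each library of the 6 groups of the mouse (top) and the rat (bottom). Points are libraries (blue PZ, red HZ), bars are means and error bars SD; Bmpr1a lies lower in the HZ of both tibias in both species, and 4 of 5 rat 4-week tibia HZ libraries have 0 Bmpr1b.

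Bmpr2 encodes the type II receptor for most Bmp ligands. The mouse 1-week tibia PZ had 2628, 3372, 2978, 3232 and 4622 normalized counts and the HZ 3919.9, 4935, 4743, 6089 and 6142. The highest PZ library lay above the lowest HZ library, and the HZ was 1.54-fold higher (log2 difference 0.62 ± 0.14 (SE), adjusted p = 0.00066). In the mouse phalanx the PZ had 3476, 3125, 3027 and 3399 and the HZ 7622, 6192, 5738, 5786 and 5011. Every HZ library was above every PZ library (1.85-fold higher; 0.89 ± 0.15, adjusted p = 2.6e-05). At 4 weeks the difference was not called in the mouse (0.34 ± 0.14, adjusted p = 0.067), but it was called without any 1 of 1-week tibia PZ replicate 5 and 4-week tibia HZ replicate 4 (0.34 to 0.43, adjusted p from 0.028 to 0.048) and under 5 of 10 other settings (adjusted p from 0.012 to 0.042). In the rat, Bmpr2 ranged from 4106 to 7535 over all 30 libraries. The rat 4-week tibia PZ had 4229, 5008, 5996, 4659 and 4251 and the HZ 6569.8, 5767, 5809, 6235 and 5979, which overlapped at 1 PZ library and was called (0.34 ± 0.11, adjusted p = 0.029). That call was lost without any 1 of 4-week tibia HZ replicates 1 and 4 or 4-week tibia PZ replicates 1, 4 and 5 (0.30 to 0.33, adjusted p from 0.057 to 0.092) and under 3 of 10 other settings (adjusted p from 0.058 to 0.21). Differences were not called in the rat 1-week tibia (0.06 ± 0.11, adjusted p = 0.68) and phalanx (0.26 ± 0.11, adjusted p = 0.071), the latter called without any 1 of 1-week phalanx HZ replicate 4 and 1-week phalanx PZ replicate 5 (0.29 to 0.31, adjusted p from 0.043 to 0.044).

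Acvr1 encodes a type I receptor whose activating mutation in humans causes ectopic bone formation. It was higher in the HZ of all 3 rat growth plates and of the mouse phalanx. The rat 1-week tibia PZ had 382, 377, 248, 328 and 327 normalized counts and the HZ 496, 680.0, 478, 755 and 749. The zones did not overlap, and the HZ was 1.88-fold higher (log2 difference 0.91 ± 0.21 (SE), adjusted p = 0.00079). The rat 4-week tibia PZ had 403, 405, 372, 409.8 and 508 and the HZ 805, 837, 697, 589 and 748, also without overlap (1.75-fold higher; 0.81 ± 0.21, adjusted p = 0.0055). In the rat phalanx the PZ had 319.9, 283, 442, 491 and 384 and the HZ 549.9, 514, 310.4, 897 and 647, which overlapped (0.55 ± 0.21, adjusted p = 0.038). That call was lost without any 1 of 1-week phalanx HZ replicates 1, 4 and 5 or 1-week phalanx PZ replicates 1 and 2 (0.37 to 0.55, adjusted p from 0.057 to 0.17) and under 4 of 10 other settings (adjusted p from 0.066 to 0.12). In the mouse 1-week tibia the PZ had 243, 209, 269, 217 and 307 and the HZ 219, 256, 142, 279 and 163, with no difference called there (-0.27 ± 0.22, adjusted p = 0.34) or at 4 weeks (-0.33 ± 0.22, adjusted p = 0.24). The mouse phalanx PZ had 341, 337, 307 and 251 and the HZ 508, 393, 446, 549.9 and 611. All 5 HZ libraries were above the 4 PZ libraries (1.62-fold higher; 0.69 ± 0.23, adjusted p = 0.018), and the call was lost without 1-week phalanx PZ replicate 5 (0.60, adjusted p = 0.066) and under 2 of 10 other settings (adjusted p from 0.051 to 0.066). The zone difference in the mouse phalanx exceeded that in the 1-week tibia by 0.96 ± 0.32, adjusted p = 0.046, a call that was lost without any 1 of 1-week phalanx HZ replicates 1, 3, 4 and 5, 1-week phalanx PZ replicates 1, 2, 4 and 5, 1-week tibia HZ replicates 3 and 5, 1-week tibia PZ replicates 1, 3, 4 and 5, 4-week tibia HZ replicate 4 or 4-week tibia PZ replicates 1, 3 and 5 (0.83 to 1.01, adjusted p from 0.0501 to 0.094) and under 5 of 10 other settings (adjusted p from 0.051 to 0.14). The 2 species were not tested against each other.

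Of the Smads, Smad1 differed between zones in both species but not in 1 direction. Smad1 and Smad5 encode the receptor-activated Smads. The rat 1-week tibia PZ had 3768, 2752, 2767, 2525 and 2123 normalized counts of Smad1 and the HZ 1283, 1377, 1486, 1027 and 1343. Every PZ library was above every HZ library (2.12-fold lower in the HZ; log2 difference -1.08 ± 0.16 (SE), adjusted p = 1.5e-06). The zones overlapped in the other rat growth plates, with -0.26 ± 0.16, adjusted p = 0.28 in the tibia at 4 weeks and -0.05 ± 0.16, adjusted p = 0.84 in the phalanx. The zone difference was thus closer to 0 at 4 weeks, by 0.83 ± 0.23, adjusted p = 0.028, and in the phalanx, by 1.03 ± 0.23, adjusted p = 0.0018. Both comparisons share the 1-week tibia libraries. The first of these calls was lost without any 1 of 1-week tibia HZ replicate 4, 1-week tibia PZ replicate 1, 4-week tibia HZ replicate 4 or 4-week tibia PZ replicates 1 and 3 (0.71 to 0.79, adjusted p from 0.052 to 0.061), and the second was kept without any 1 library and in all 10 other settings. With marrow marker covariates the first was 0.75, adjusted p = 0.41, the second 0.88, adjusted p = 0.21 and the 1-week tibia zone difference itself -0.95, adjusted p = 0.074, none of them called. In the mouse the 1-week tibia zones overlapped (0.12 ± 0.19, adjusted p = 0.64). The mouse 4-week tibia PZ had 487, 516, 465, 492 and 400.5 and the HZ 660.0, 857, 478, 721 and 746, called higher in the HZ (0.53 ± 0.19, adjusted p = 0.031) with 1 HZ library inside the PZ range. That call was lost without any 1 of 4-week tibia HZ replicates 2, 4 and 5 or 4-week tibia PZ replicates 3 and 5 (0.45 to 0.53, adjusted p from 0.053 to 0.092) and under 2 of 10 other settings (adjusted p from 0.061 to 0.082). In the mouse phalanx the PZ had 899, 626, 572 and 508 and the HZ 834, 787, 856, 1234 and 913 (0.52 ± 0.21, adjusted p = 0.047). The zones overlapped, and that call was lost without any 1 of 1-week phalanx HZ replicates 1, 3, 4 and 5, 1-week phalanx PZ replicates 2, 4 and 5, 1-week tibia PZ replicates 1, 2, 3 and 4, 4-week tibia HZ replicates 1, 4 and 5 or 4-week tibia PZ replicates 1, 2, 3 and 4 (0.41 to 0.55, adjusted p from 0.0501 to 0.16) and under 6 of 10 other settings (adjusted p from 0.061 to 0.12).

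Smad5 in the mouse 1-week tibia rose from PZ to HZ, with 1307, 1422, 1501, 1305 and 1247 in PZ libraries and 1613, 1669, 1534, 2178 and 1954 in HZ libraries. The zones did not overlap (1.31-fold higher; 0.39 ± 0.12, adjusted p = 0.0087), and the call was lost under 2 of 10 other settings (adjusted p from 0.059 to 0.12). Every HZ library of the mouse phalanx was also above every PZ library, with 1397, 1615, 1366 and 1307 and 1780.2, 1735, 1799, 1749 and 1711, but the difference was not called (0.31 ± 0.13, adjusted p = 0.059). It was called without any 1 of 1-week phalanx PZ replicate 2 and 1-week tibia HZ replicate 4 (0.31 to 0.37, adjusted p from 0.042 to 0.047) and under 3 of 10 other settings (adjusted p from 0.046 to 0.049). No zone difference of Smad5 was called in the mouse 4-week tibia (0.05 ± 0.12, adjusted p = 0.80) or in the rat (0.13 ± 0.14, adjusted p = 0.48 in the 1-week tibia, 0.08 ± 0.14, adjusted p = 0.77 in the 4-week tibia and -0.18 ± 0.14, adjusted p = 0.31 in the phalanx). The rat 1-week tibia value became called with marrow marker covariates only. Smad6, the inhibitory Smad, ranged from 1.47 to 167 normalized counts over the mouse libraries and from 0 to 70.1 over the rat libraries. Its SE of 0.84 to 0.89 on the log2 scale was above that of every other member in the rat, and of every other member but Bmpr1b in the mouse. None of its 6 zone differences was called (adjusted p from 0.19 to 0.93).

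**Figure D2:**
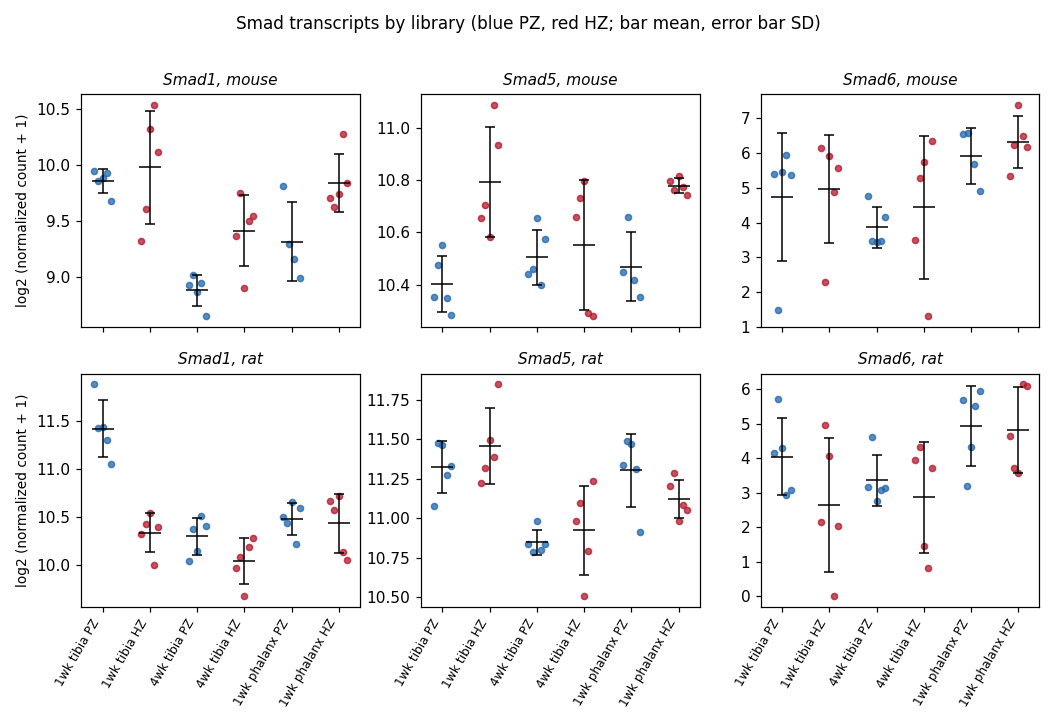
Log2 of the normalized count plus 1 for Smad1, Smad5 and Smad6 in each library of the 6 groups, mouse above and rat below. Points are libraries (blue PZ, red HZ), bars are means and error bars SD; the rat 1-week tibia PZ stands above the 5 other rat groups for Smad1, and Smad6 scatters over more than 4 log2 units within a group in 3 groups.

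The Id genes are commonly used as readouts of this pathway. Id2 and Id3, which differed between zones in opposite directions in the rat, have promoters in RefSeq (GRCm38.p6) from 250 bases before to 50 bases after the annotated start, which are shown to place short motifs known from Bmp-responsive promoters. Of the 10 members 9 matched an entry. Id1 was not matched. Both strands were searched for GGCGCC, which reads the same on both strands, the GC-rich Bmp element, and for the Smad box CAGAC, whose other strand is GTCTG. Capitals mark the matches, which are a description and not binding sites. Of 27025 mouse promoters of this length, 12.0% hold GGCGCC and 49.7% hold CAGAC or GTCTG. In the first entry of each member, GGCGCC was found in 4 (Bmpr1a, Bmpr2, Smad5 and Id2) and CAGAC or GTCTG in 2 (Bmpr1b and Id3). The GC content of these entries was 48.3% for Bmpr1b and 59.3% (Bmpr2) to 83.7% (Acvr1) for the others, against a median of 52.7% over all promoters. The shares over all promoters are not matched for GC content, and enrichment was not tested. The Id2 promoter holds GGCGCC 231 bases before the start, and the Id3 promoter holds CAGAC 167 bases before it and GTCTG 68 bases before it. Both windows lie inside the gene positions given above, downstream of the gene starts there. The distances therefore refer to the RefSeq start only.
Id2, chr12:25096043-25096342, minus strand: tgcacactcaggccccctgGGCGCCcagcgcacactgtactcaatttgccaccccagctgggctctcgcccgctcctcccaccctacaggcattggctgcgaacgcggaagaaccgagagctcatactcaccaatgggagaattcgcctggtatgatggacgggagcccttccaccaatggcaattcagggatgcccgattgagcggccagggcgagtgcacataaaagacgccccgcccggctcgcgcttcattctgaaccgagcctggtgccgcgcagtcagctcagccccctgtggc
Id3, chr4:136143572-136143871, plus strand: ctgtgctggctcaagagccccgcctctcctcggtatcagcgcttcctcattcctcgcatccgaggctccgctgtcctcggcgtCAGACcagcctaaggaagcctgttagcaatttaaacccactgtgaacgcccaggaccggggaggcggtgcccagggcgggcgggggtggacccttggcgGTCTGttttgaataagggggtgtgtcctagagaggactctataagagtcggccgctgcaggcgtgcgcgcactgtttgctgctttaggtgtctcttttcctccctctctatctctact
Rat promoters were not used here.

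Id3 was higher in the HZ, in all 3 rat growth plates and in the mouse phalanx. The rat 1-week tibia PZ had 141, 141, 97.3, 107 and 61.9 normalized counts and the HZ 453, 371, 290.4, 302 and 213. The 4-week tibia PZ had 117, 181, 148, 200.1 and 62.5 and the HZ 602, 468, 274, 508 and 415. The phalanx PZ had 173, 137, 227, 150.4 and 169 and the HZ 704, 646, 299.6, 539 and 603. In each of the 3 rat growth plates every HZ library was above every PZ library, by 2.99-fold (log2 difference 1.58 ± 0.29 (SE), adjusted p = 5.3e-05), 3.32-fold (1.73 ± 0.29, adjusted p = 5.3e-05) and 3.16-fold (1.66 ± 0.29, adjusted p = 3.4e-05). The mouse phalanx PZ had 349, 329, 505 and 221 and the HZ 1305, 1360.3, 1285, 1354 and 775, again with no overlap (3.53-fold higher; 1.82 ± 0.26, adjusted p = 1.2e-06; 1.97, adjusted p = 2.3e-07 without replicate 5 of the HZ). The mouse 1-week tibia PZ had 303, 453, 343, 532 and 360.4 and the HZ 395, 923, 515, 534 and 422, which overlapped (0.44 ± 0.24, adjusted p = 0.13). The mouse 4-week tibia difference was 0.06 ± 0.24, adjusted p = 0.88. The zone difference in the mouse phalanx exceeded that in the mouse 1-week tibia by 1.38 ± 0.35, adjusted p = 0.0096, and this was 1.53, adjusted p = 0.0027 without replicate 5 of the phalanx HZ. In the rat the corresponding value was 0.08 ± 0.42, adjusted p = 0.93. Id3 is also known in endothelial cells, and the endothelial markers were higher in each HZ. With them as a covariate the rat differences were 0.93, 1.10 and 1.06 and the mouse phalanx difference 1.14, none of them called. These markers followed the zone closely, so a call lost in that fit cannot be assigned to endothelial cells, whose part was not tested. The larger zone difference of the mouse phalanx than of the mouse 1-week tibia stayed called with this covariate.

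Id1 and Id2 did not follow Id3. In the mouse 1-week tibia Id1 had 149, 166, 129.8, 193 and 314 in PZ libraries and 37.3, 134, 71.2, 151 and 76.8 in HZ libraries (2.14-fold lower; -1.10 ± 0.39, adjusted p = 0.021), with the 2 highest HZ libraries inside the PZ range. That call was lost without any 1 of 1-week tibia HZ replicate 1 and 1-week tibia PZ replicate 5 (-0.90 to -0.81, adjusted p from 0.077 to 0.083) and under 4 of 10 other settings (adjusted p from 0.056 to 0.084). In the mouse 4-week tibia Id1 had 234, 209, 241, 298 and 223 in PZ libraries and 63.8, 125, 63.8, 80.8 and 64.3 in HZ libraries. There every HZ library was below every PZ library (3.10-fold lower; -1.63 ± 0.39, adjusted p = 0.0012). In the mouse phalanx Id1 overlapped between zones (-0.01 ± 0.41, adjusted p = 0.99), and in the rat no zone difference of Id1 was called (0.25 ± 0.31, adjusted p = 0.55 in the 1-week tibia, -0.04 ± 0.31, adjusted p = 0.95 in the 4-week tibia and 0.52 ± 0.31, adjusted p = 0.18 in the phalanx). The last was called without 1-week phalanx PZ replicate 5 (0.78, adjusted p = 0.033).

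Id2 had 86.5, 82.99, 83.2, 77.5 and 108 in the mouse 1-week tibia PZ and 42.7, 33.5, 9.19, 18.9 and 67.7 in the HZ. Every HZ library was lower (3.03-fold; -1.60 ± 0.43, adjusted p = 0.003), and the call was lost under 1 of 10 other settings (adjusted p = 0.056), the fit with replicate number as a block. In the mouse 4-week tibia the PZ had 98.7, 115, 113, 129.7 and 122 and the HZ 71.4, 87.5, 24.7, 87.4 and 47.0. These did not overlap either, but the difference was not called (-0.98 ± 0.43, adjusted p = 0.075). It was called without 1-week tibia HZ replicate 3 (-0.98, adjusted p = 0.043) and under 7 of 10 other settings (adjusted p from 0.0097 to 0.049). The rat 1-week tibia PZ had 190.2, 108, 88.6, 49.3 and 96.6 and the HZ 17.2, 57.3, 91.6, 31.3 and 15.4 (2.81-fold lower; -1.49 ± 0.53, adjusted p = 0.023). The ranges overlapped, and the call was lost without any 1 of 1-week tibia HZ replicates 1 and 5 or 1-week tibia PZ replicate 1 (-1.25 to -1.22, adjusted p from 0.069 to 0.077) and under 1 of 10 other settings (adjusted p = 0.11). The rat 4-week tibia (-0.85 ± 0.53, adjusted p = 0.28) and both phalanges (mouse -0.35 ± 0.46, adjusted p = 0.59, rat -0.30 ± 0.53, adjusted p = 0.69) were not called.

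**Figure D3:**
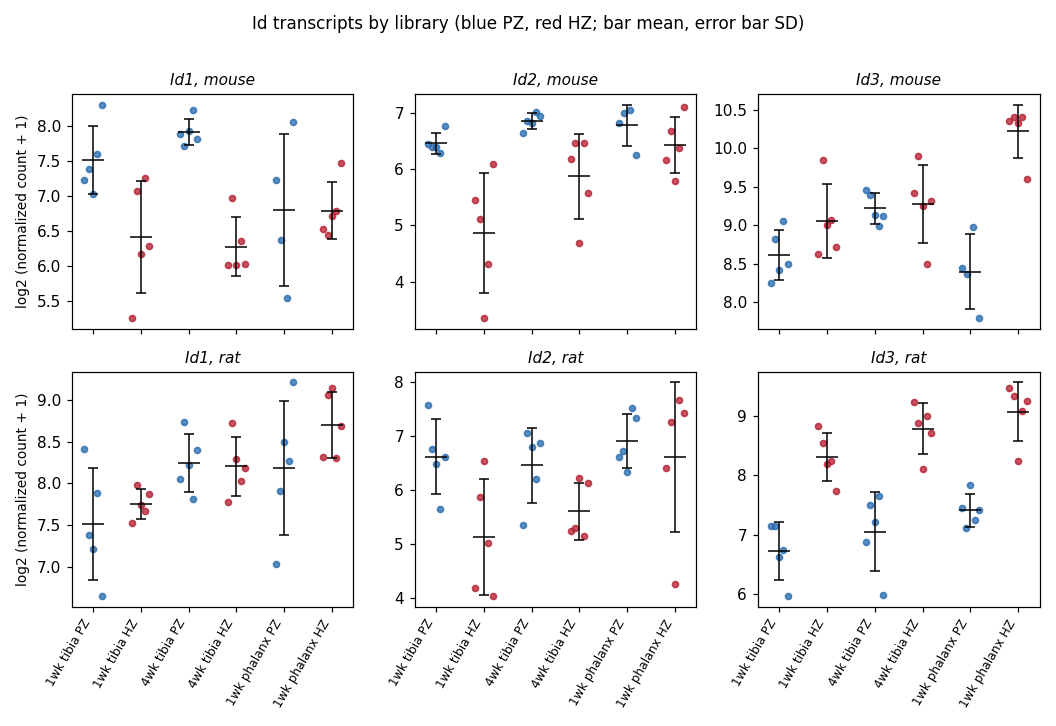
Log2 of the normalized count plus 1 for Id1, Id2 and Id3 in each library of the 6 groups, mouse above and rat below. Points are libraries (blue PZ, red HZ), bars are means and error bars SD; Id3 lies higher in the HZ of all 3 rat growth plates and of the mouse phalanx, while Id2 lies lower in the HZ of the mouse and rat 1-week tibia.

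With age in the tibia (4 weeks against 1 week), Smad1 was lower in the PZ of both species and Smad5 was lower in both zones of the rat. In the mouse 1 member was lower and 0 higher in the PZ (all genes, 3.39% lower and 5.19% higher), and 1 was lower and 0 higher in the HZ (all genes, 6.72% and 8.83%). In the rat 2 were lower and 0 higher in the PZ (all genes, 6.45% and 9.63%), and 2 were lower and 0 higher in the HZ (all genes, 7.06% and 6.67%). The mouse PZ had 982, 925, 939.8, 974 and 816 normalized counts of Smad1 at 1 week and 487, 516, 465, 492 and 400.5 at 4 weeks. Every 4-week library was below every 1-week library (1.97-fold lower; log2 difference -0.97 ± 0.19 (SE), adjusted p = 0.00094). The rat PZ had 3768, 2752, 2767, 2525 and 2123 at 1 week and 1057, 1329.8, 1134, 1460.5 and 1352 at 4 weeks, again with no overlap (2.18-fold lower; -1.12 ± 0.16, adjusted p = 4.1e-06). Neither call was lost by leaving out a library or under any of the 10 other settings, and neither was called with marrow marker covariates (-0.39, adjusted p = 0.70 in the mouse and -0.80, adjusted p = 0.36 in the rat). In the HZ the mouse libraries overlapped, with 640.0, 776, 1273, 1483 and 1105 at 1 week and 660.0, 857, 478, 721 and 746 at 4 weeks (-0.57 ± 0.19, adjusted p = 0.043), and the call was lost without any 1 of 1-week tibia HZ replicates 3, 4 and 5 or 4-week tibia HZ replicates 1, 3, 4 and 5 (-0.60 to -0.43, adjusted p from 0.053 to 0.14) and under 5 of 10 other settings (adjusted p from 0.054 to 0.22). The rat HZ difference was not called (-0.30 ± 0.16, adjusted p = 0.21).

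Smad5 had 2154, 2841, 2824, 2477 and 2573 in the rat 1-week tibia PZ and 1827, 1761, 2019, 1783 and 1826 at 4 weeks. Every 4-week library was lower (1.39-fold; -0.48 ± 0.14, adjusted p = 0.016). In the rat HZ it had 2392, 2548, 2882, 2677 and 3684 at 1 week and 2019.6, 2189, 1454, 1775 and 2408 at 4 weeks, with 1 of the 4-week libraries inside the 1-week range (-0.53 ± 0.14, adjusted p = 0.009), and the call was lost under 1 of 10 other settings (adjusted p = 0.056). In the mouse Smad5 differed by 0.10 ± 0.12, adjusted p = 0.72 in the PZ and -0.24 ± 0.12, adjusted p = 0.18 in the HZ. Bmpr1b in the rat HZ was lower at 4 weeks (-3.62 ± 0.75, adjusted p = 0.0011), where 4 of 5 libraries were at 0. That call was lost with a pseudocount of 16 (-1.12, adjusted p = 0.053). Bmpr1a, Bmpr2, Acvr1 and the Id genes were not called with age in either species or zone, but several became called under other settings. In the mouse PZ, Bmpr2 (0.38 ± 0.14, adjusted p = 0.10) was called without 1-week tibia PZ replicate 5 (0.50, adjusted p = 0.022) and under 3 of 10 other settings (adjusted p from 0.0017 to 0.021). Id3 (0.61 ± 0.24, adjusted p = 0.12) was called under 3 of 10 other settings (adjusted p from 0.0046 to 0.014), Acvr1 (0.52 ± 0.22, adjusted p = 0.14) under 3 of 10 other settings (adjusted p from 0.008 to 0.034) and Bmpr1a (0.32 ± 0.18, adjusted p = 0.34) under 1 of 10 other settings (adjusted p = 0.02). In the mouse HZ, Id2 (1.01 ± 0.43, adjusted p = 0.11) was called without any 1 of 1-week tibia HZ replicate 5 and 4-week tibia HZ replicate 3 (1.31 to 1.32, adjusted p from 0.03 to 0.044) and Bmpr1a (0.36 ± 0.18, adjusted p = 0.19) without 1-week tibia HZ replicate 5 (0.52, adjusted p = 0.039). In the rat, Bmpr2 in the HZ (0.33 ± 0.11, adjusted p = 0.0503) was called without any 1 of 1-week phalanx HZ replicate 3, 1-week phalanx PZ replicate 5, 1-week tibia HZ replicate 1, 1-week tibia PZ replicate 1 and 4-week tibia PZ replicate 3 (0.33 to 0.36, adjusted p from 0.037 to 0.044) and under 5 of 10 other settings (adjusted p from 0.026 to 0.049), and Id1 in the PZ (0.74 ± 0.31, adjusted p = 0.10) without 1-week tibia PZ replicate 1 (0.96, adjusted p = 0.032) and under 1 of 10 other settings (adjusted p = 0.0098). The zone difference was called different between ages for 0 mouse members with limma (all genes, 0.841% higher and 1.6% lower), whereas in the rat 1 was higher, Smad1 (all genes, 1.53% higher and 2.82% lower). At an unadjusted p under 0.05 the count was 0 in the mouse.

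Markers of other cell types also moved with age. Of 12 mouse B lymphocyte markers, the PZ had 6 and the HZ 10 that were higher at 4 weeks, and in the HZ they summed to 285 to 1451 at 1 week and 1803 to 4689 at 4 weeks. All 9 erythroid markers tested were higher in the rat PZ, with sums of 824 to 1179 and 6989.8 to 29136. With the marrow markers as covariates no age difference of a member was called in either species, and Smad5 in the rat PZ went from -0.48 to 0.04.

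Between the phalanx and the tibia at 1 week, most members that differed were higher in the phalanx HZ. In the PZ 0 mouse members were called in either direction with limma (all genes, 3.23% higher and 1.86% lower; 1 member at an unadjusted p under 0.05), and in the rat 1 was lower (all genes, 6.78% higher and 3.67% lower). In the HZ 3 of 10 members were higher and none was lower in the mouse (all genes, 9.77% higher and 9.2% lower), and 6 were higher and none was lower in the rat (all genes, 19.7% higher and 16.3% lower). The members' median log2 difference in the HZ was 0.75 in the mouse and 0.71 in the rat, against 0.13 and 0.13 over all tested genes. The mouse median lay in a gap between Id1 (0.38 ± 0.39) and Bmpr1b (1.13 ± 0.88, adjusted p = 0.39). Smad6 (1.36 ± 0.84, adjusted p = 0.27) also lay above it, and these scarce transcripts had the largest errors. In the rat Bmpr1b (1.13 ± 0.75, adjusted p = 0.24) and Smad6 (2.19 ± 0.85, adjusted p = 0.042) were likewise above the median. Age and bone comparisons share the 1-week tibia libraries.

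Smad1 was lower in the rat phalanx PZ, with 1442, 1382, 1617, 1195 and 1542 against 3768, 2752, 2767, 2525 and 2123 in the tibia PZ. The bones did not overlap (1.92-fold lower; log2 difference -0.94 ± 0.16 (SE), adjusted p = 0.0001). The mouse phalanx PZ had 899, 626, 572 and 508 against 982, 925, 939.8, 974 and 816, which was not called (-0.54 ± 0.21, adjusted p = 0.13) but passed the threshold in 3 of the 10 other settings (adjusted p from 0.029 to 0.044). The rat value was called without any 1 library and in all 10 other settings, but not with marrow marker covariates (-0.78, adjusted p = 0.30). In the rat phalanx PZ all 9 erythroid markers were higher than in the tibia PZ, with sums of 3819.6 to 16912 against 824 to 1179, as were 4 of 10 macrophage, 5 of 7 osteoblast and 3 of 4 osteoclast markers. Their part in the difference was not tested.

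In the HZ, Id2 and Id3 were higher in the phalanx in both species and Id1 in the rat. These are transcripts in captures of mixed cells and do not measure Smad phosphorylation. By western blot of mouse chondrocytes, the study reported more phosphorylated Smad protein from tibia and femur than from metacarpal and phalanx. Id2 had 42.7, 33.5, 9.19, 18.9 and 67.7 in the mouse tibia HZ and 71.0, 102, 54.6, 82.4 and 138 in the phalanx HZ (2.96-fold higher; log2 difference 1.57 ± 0.43 (SE), adjusted p = 0.0096), and the bones overlapped. The call was lost under 4 of 10 other settings (adjusted p from 0.052 to 0.21). Id3 had 395, 923, 515, 534 and 422 in the tibia and 1305, 1360.3, 1285, 1354 and 775 in the phalanx (2.24-fold higher; 1.16 ± 0.24, adjusted p = 0.00067; 1.32, adjusted p = 0.00015 without replicate 5). In the rat Id2 had 17.2, 57.3, 91.6, 31.3 and 15.4 in the tibia and 84.2, 152, 18.3, 202 and 170.5 in the phalanx (2.78-fold higher; 1.48 ± 0.53, adjusted p = 0.028). These overlapped, and the call was lost without any 1 of 1-week phalanx HZ replicates 2, 4 and 5 or 1-week tibia HZ replicates 1 and 5 (1.20 to 1.31, adjusted p from 0.069 to 0.094) and under 5 of 10 other settings (adjusted p from 0.0504 to 0.13). Fitted on recovered reads (voom), Id2 was called in neither species. Median reads outside Rn45s were 5684666 in the mouse tibia HZ and 11624515 in the phalanx HZ. In the rat they were 8486736 and 19150835. Id3 had 453, 371, 290.4, 302 and 213 and 704, 646, 299.6, 539 and 603 (0.76 ± 0.29, adjusted p = 0.041). The bones overlapped, and that call was lost without any 1 of 1-week phalanx HZ replicates 1, 2, 4 and 5 or 1-week tibia HZ replicates 3, 4 and 5 (0.62 to 0.76, adjusted p from 0.063 to 0.12) and under 3 of 10 other settings (adjusted p from 0.051 to 0.09). Id1 had 183, 252, 212, 202 and 233 in the rat tibia and 318, 535, 564, 316 and 411 in the phalanx. Every phalanx library was above every tibia library (1.93-fold higher; 0.95 ± 0.31, adjusted p = 0.015). Id1 in the mouse HZ was not called (0.38 ± 0.39, adjusted p = 0.54). Of the other values not called between the bones, rat Smad5 in the HZ (-0.33 ± 0.14, adjusted p = 0.061) was called without any 1 of 1-week phalanx PZ replicate 5, 1-week tibia HZ replicate 1 and 4-week tibia HZ replicate 3 (-0.39 to -0.33, adjusted p from 0.037 to 0.044) and under 2 of 10 other settings (adjusted p from 0.012 to 0.031), rat Id1 in the PZ (0.68 ± 0.31, adjusted p = 0.17) without 1-week phalanx PZ replicate 1 (0.97, adjusted p = 0.031), mouse Bmpr1a in the HZ (0.38 ± 0.18, adjusted p = 0.15) without 1-week tibia HZ replicate 5 (0.54, adjusted p = 0.029) and mouse Bmpr2 in the HZ (0.24 ± 0.14, adjusted p = 0.26) under 1 of 10 other settings (adjusted p = 0.0086).

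Among the receptors, Acvr1 was higher in the mouse phalanx HZ, with 508, 393, 446, 549.9 and 611 against 219, 256, 142, 279 and 163 in the tibia, without overlap (2.41-fold higher; 1.27 ± 0.22, adjusted p = 6.2e-05). In the rat the difference of Acvr1 was -0.17 ± 0.21, adjusted p = 0.57. Bmpr1a was higher in the rat phalanx HZ, with 1072, 1407, 1576, 1273 and 1499.7 against 667, 802, 1026, 917 and 919 (1.58-fold higher; 0.66 ± 0.18, adjusted p = 0.0042). Every phalanx library exceeded every tibia library. Bmpr2 in the rat had 6284, 6846, 7535, 5501 and 5871 in the phalanx and 5327, 4499, 4991, 4855 and 4533 in the tibia (0.40 ± 0.11, adjusted p = 0.0066), again without overlap, and the call was lost under 1 of 10 other settings (adjusted p = 0.10), the centring of each library on its median. Smad6 in the rat had 24.2, 12.0, 10.8, 70.1 and 66.9 in the phalanx and 3.44, 30.6, 15.6, 0 and 3.09 in the tibia (2.19 ± 0.85, adjusted p = 0.042). The bones overlapped, and this call was lost without any 1 of 1-week phalanx HZ replicates 1, 4 and 5 or 1-week tibia HZ replicates 1, 4 and 5 (1.53 to 2.23, adjusted p from 0.058 to 0.15) and under 6 of 10 other settings (adjusted p from 0.051 to 0.12). Over both zones the rat had 7 calls between the bones, against 4 under median centring, 4 under quantile normalization and 1 with marrow marker covariates. Under median centring Bmpr2, Id2, Id3 and Smad6 were no longer called in the HZ. Bmpr1a and Id1 stayed higher in the HZ, Smad5 became called lower there, and Smad1 stayed lower in the PZ. The signed zone difference (HZ minus PZ) was higher in the phalanx than in the 1-week tibia for 2 mouse members, Acvr1 and Id3 (all genes, 4.38% higher and 6.19% lower), and for 1 rat member, Smad1, whose negative difference was closer to 0 in the phalanx (all genes, 7.33% higher and 8.57% lower).

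The phalanx HZ captures also differed from the tibia HZ in cell type markers. All 8 chondrocyte markers were lower in the phalanx HZ in both species, with sums of 134094 to 1088731 in the mouse phalanx against 780272 to 1813481 in the tibia, and 1272144 to 2739276 against 2518087 to 5016291 in the rat. Osteoclast markers summed to 94228 to 204859 in the mouse phalanx HZ and 40669.8 to 79644 in the tibia HZ, and to 83017 to 143838 and 7187 to 56818 in the rat. Osteoblast markers summed to 89315 to 763555 and 93442 to 243025 in the mouse, and to 470232 to 992592 and 169411 to 456795 in the rat. In the rat 8 of 10 macrophage markers and 4 of 12 endothelial markers were also higher in the phalanx HZ, with macrophage sums of 9988 to 20171 against 2761 to 9593. In the mouse 1 of 10 and 1 of 12 were. No chondrocyte, osteoclast or osteoblast marker was at 0 in all libraries of a 1-week HZ group. Their part in the differences between bones was not tested. Replicate 5 of the mouse phalanx HZ had the highest chondrocyte sum of its group (1088731). Without it 3 members were still higher in the mouse phalanx HZ than in the tibia HZ, and 3 higher and 1 lower in the HZ than in the PZ of the phalanx.

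**Figure D4:**
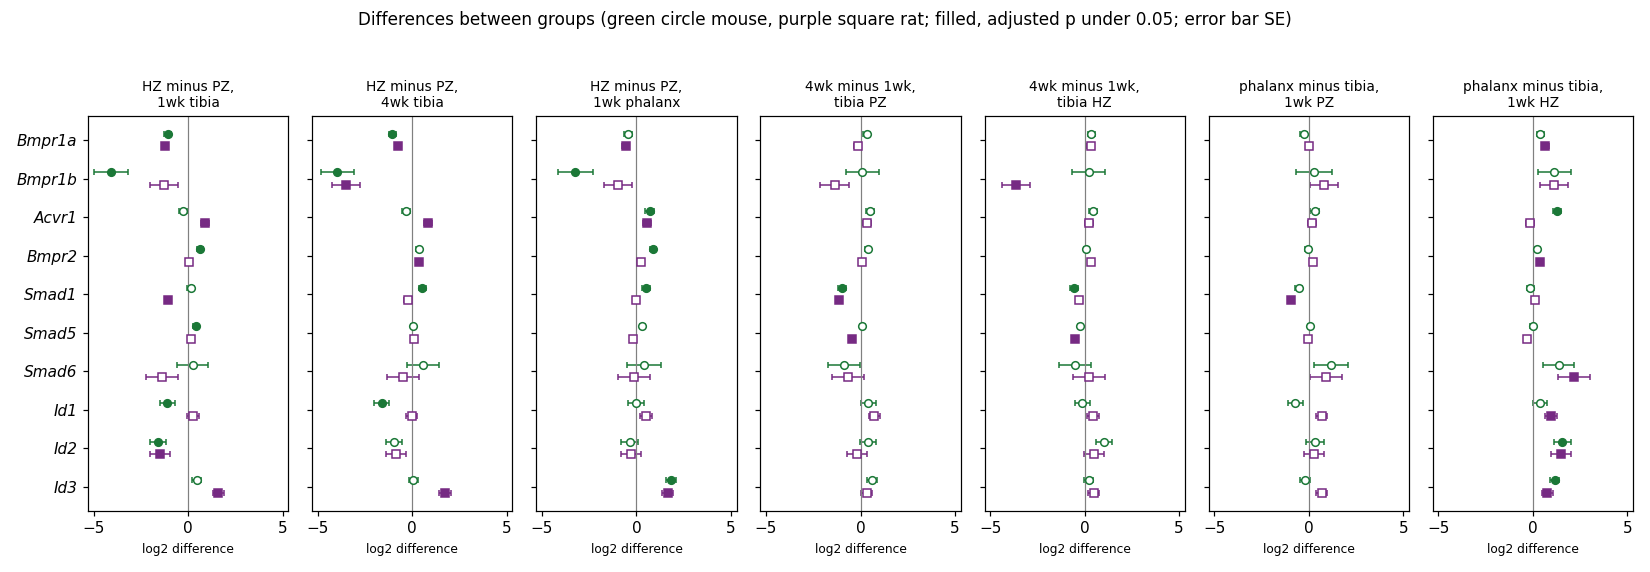
Log2 differences of the 10 members in the 7 comparisons of zone, age and bone, in the mouse (green circles) and the rat (purple squares). Error bars are SE and filled symbols have an adjusted p under 0.05; Bmpr1a lies below 0 in all 3 zone comparisons, Smad1 lies near -1 in the PZ of both species with age, and most members lie above 0 in the phalanx HZ against the tibia HZ.

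Other genes of the pathway were read from lists that hold no member, and the values after their names are log2 differences. Of the list of Bmp and Gdf ligand genes, 8 higher and 5 lower of 15 tested were called between the zones of the mouse tibia at 1 week. In the rat 5 higher and 3 lower of 11 were called. The list and its counts include Bmp1, which encodes a protease and not a ligand. It also holds Bmp3, which the study names a functional antagonist, and Inha, which encodes an inhibin subunit. Over all genes 20.4% were higher and 23.7% lower there in the mouse, and 22.6% and 19% in the rat. The smallest adjusted p belonged to Bmp8a (4.96), Bmp2 (3.93), Bmp1 (1.42) and Bmp6 (4.79) in the mouse and to Bmp6 (3.80), Gdf10 (-6.14), Bmp2 (3.19) and Inhba (3.32) in the rat, of which Bmp2 is also an HZ marker and Gdf10 a PZ marker. The antagonist genes were mixed (2 higher and 2 lower of 15 in the mouse, 2 higher and 1 lower of 11 in the rat). Crim1 was higher (2.26 and 0.75) and Bmper lower (-3.40 and -3.29) in both species. Sostdc1 was lower (-3.76) and Twsg1 higher (0.94) in the mouse, and Grem1 was higher in the rat (4.33). Among the other receptors and coreceptors, 3 higher and 3 lower of 8 were called in the mouse and 4 higher and 2 lower of 7 in the rat. The smallest adjusted p belonged to Eng (3.77), Rgma (-1.83), Neo1 (-0.68) and Bambi (1.18) in the mouse and to Rgma (-1.25), Acvrl1 (3.20), Hfe2 (4.08) and Bambi (1.399) in the rat. Eng and Acvrl1 encode receptors of endothelial cells, Bambi a pseudoreceptor, and Rgma and Neo1 encode coreceptor components. Eng in the rat (2.91) and Acvrl1 in the mouse (2.04) were higher as well.

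Of the other Smads and regulators, 7 higher and 0 lower of 12 were called in the mouse 1-week tibia (all genes, 20.4% higher and 23.7% lower) and 5 higher and 2 lower of 10 in the rat (all genes, 22.6% and 19%). The inhibitory Smad7 was higher by 2.47 and 2.44. Skil (1.98) and the ubiquitin ligase gene Smurf1 (1.74) had the smallest adjusted p beside it in the mouse, and Smad4, the common partner (1.37), and Nedd4l (1.69) in the rat. Smad9, the third receptor-activated Smad of the pathway, was higher in the mouse (1.13) and lower in the rat (-4.08). Of the other target genes, 4 higher and 5 lower of 11 were called in the mouse and 3 higher and 2 lower of 10 in the rat. Dlx3 was higher (2.96 and 3.16) and Dlx5 lower (-1.43 and -1.10) in both. Atoh8 (1.88 and 1.28) and Hey1 (2.31 and 3.66) were also higher in both.

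With age in the tibia PZ, Smad1 was lower, and 5.19% of all mouse genes and 9.63% of all rat genes were higher. In the ligand list the mouse had 3 higher and 0 lower of 15 tested genes called (Bmp8a 4.41, Bmp1 0.96 and Bmp6 1.66). The rat had 3 higher and 2 lower of 11 (Bmp8a 2.03, Bmp1 0.75, Bmp2 1.07, Bmp5 -4.23 and Bmp7 -1.11). In each species the higher genes thus include the protease gene Bmp1. The antagonist gene Chrdl1 was higher in both species (2.69 and 2.98), with Twsg1 higher in the mouse (0.80) and Bmper lower in the rat (-1.65). Smad9 was lower (-1.20) and Skil (0.65) and the coreceptor Neo1 (0.66) higher in the mouse, and the target gene Stra6 was lower in the rat (-2.35).

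In the phalanx HZ against the tibia HZ, where Id2 and Id3 were higher, the lists had calls in both directions except the receptors (all genes, 9.77% higher and 9.2% lower in the mouse, 19.7% and 16.3% in the rat). For the ligand list, 2 higher and 2 lower of 15 were called in the mouse, led by Bmp6 (-2.54), Bmp2 (-1.41), Bmp3 (2.45) and Bmp7 (1.56). In the rat 4 higher and 3 lower of 11 were called, led by Inhba (-3.21), Bmp6 (-1.77), Inha (-1.64) and Gdf10 (2.45). Of these, Bmp3 is a functional antagonist by the study's account, and Inha encodes an inhibin subunit. For the antagonist genes, 5 higher and 3 lower of 15 were called in the mouse, led by Sostdc1 (5.91), Nog (-2.18), Crim1 (-1.33) and Sost (4.42), and 2 higher and 3 lower of 11 in the rat, led by Chrdl2 (-5.40), Crim1 (-1.12), Bmper (2.44), Chrdl1 (1.05) and Twsg1 (-1.02). For the other receptor genes, 0 higher and 1 lower of 8 were called in the mouse, led by Rgma (-1.04), and 0 higher and 2 lower of 7 in the rat, led by Hfe2 (-3.74) and Rgma (-0.80). For the other Smads and regulators, 2 higher and 4 lower of 12 were called in the mouse, led by Smad9 (-1.53), Smad7 (-1.10), Tob1 (-1.01) and Smurf1 (-0.78), and 2 higher and 3 lower of 10 in the rat, led by Smad4 (-1.03), Smurf2 (0.89), Ppm1a (-0.58), Smad9 (2.37) and Lemd3 (-0.56). For the other target genes, 2 higher and 1 lower of 11 were called in the mouse, led by Dlx5 (1.46), Atoh8 (-1.64) and Dlx6 (3.01), and 1 higher and 1 lower of 10 in the rat, led by Dlx5 (1.92) and Runx2 (-0.57). Dlx5, which encodes a homeobox factor of chondrocytes and osteoblasts, was higher and Bmp6, Crim1 and Rgma were lower in both species.

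The genes most like each member were taken as those with the largest lower value of the Pearson correlation in the 2 species, over 29 mouse and 30 rat libraries and 10363 genes tested in both. The libraries share groups, depth and cell makeup, so these are descriptions. Bmpr1a was most like Srpx (0.89 in the mouse, 0.89 in the rat) and Rpl36a (0.85, 0.89), Bmpr1b like Bmp7 (0.74 in the mouse, 0.76 in the rat) and Arsj (0.85, 0.73), Acvr1 like Mepe (0.64 in the mouse, 0.65 in the rat) and Fkbp7 (0.65, 0.62) and Bmpr2 like Tlr3 (0.76 in the mouse, 0.77 in the rat) and Il10rb (0.77, 0.76). Bmp7 is itself a PZ marker. Smad1 was most like Zfp57 (0.72 in the mouse, 0.66 in the rat) and Scube3 (0.62, 0.62), Smad5 like Tgm2 (0.70 in the mouse, 0.63 in the rat) and Fam168b (0.61, 0.59) and Smad6 like Mfap2 (0.60 in the mouse, 0.51 in the rat). Id1 was most like Fam120a (0.68 in the mouse, 0.72 in the rat) and Commd10 (0.62, 0.63), Id2 like Pde3a (0.67 in the mouse, 0.67 in the rat) and Smo (0.63, 0.67) and Id3 like Creb3l1 (0.83 in the mouse, 0.82 in the rat) and Slc39a1 (0.82, 0.87). By Spearman correlation the leading gene was the same for Bmpr1a, Acvr1 and Id1 and differed for the other 7 members.

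Among the members themselves, Bmpr1a and Bmpr1b moved together over the libraries (0.71 in the mouse, 0.44 in the rat), as did Bmpr2 and Id3 (0.72 and 0.69), while Bmpr1a and Id3 moved apart (-0.32 and -0.66). Id1 and Id2 correlated at 0.38 and 0.18, and Id1 and Id3 at -0.15 and 0.36. Ordered by group mean, Bmpr1a was highest in the 3 PZ groups in both species, and every neighbouring pair of groups in that order overlapped except the rat 4-week tibia PZ and 1-week phalanx HZ. Id3 was highest in the 3 HZ groups in the rat and in the phalanx HZ in the mouse. For Smad1 in the rat the 1-week tibia PZ was highest and did not overlap with the next group, the phalanx PZ, and the other 5 groups overlapped with their neighbours.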

How the data were processed

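Laser-captured PZ and HZ tissue was profiled by RNA sequencing in 30 mouse and 30 rat samples, of which 29 and 30 have a column. RNA was amplified before library preparation. Per the study's methods, alignment by the authors was to mm10 (mouse) or rn6 (rat) in STAR 2.4.2, gene counting in featureCounts 1.4.6, and normalization by relative log expression in DESeq2. The deposited values are log2 of the normalized count plus 1, which the authors made with that scaling. Whole reads could be recovered from the steps of these values: 100% of the values under 200 reads were within 0.05 of a whole number. Rows with date names (26 mouse, 27 rat) were dropped, and of symbols with several rat rows the row with the highest mean was kept (216 dropped).

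Differences were fitted with limma 3.58.1 in R 4.3.3 (lmFit, then eBayes with trend and robust) over all 6 groups of a species, on genes that reached 10 normalized counts in 5 or more libraries (15213 in the mouse, 11760 in the rat). Each comparison had its own Benjamini-Hochberg adjustment over those genes. The script was tested on simulated data. P-values measure the spread between libraries, which the labels number as replicates. The members and gene lists were chosen with earlier results of these data known. Beyond the members, the text names the 2 to 4 genes of each pathway list with the smallest adjusted p in a comparison, every gene of a count of 5 or fewer, and the 2 genes most like each member, of which 1 for Smad6 is not reported here. The value of such a gene in the other species was added after its values were seen. Alternatives were pseudocounts of 4 and 16, no filter, a filter of 50, only the groups compared, a replicate block, quantile normalization, median centring, array weights, voom on recovered reads, marker covariates and leaving out each library. Counting error is not given apart from the spread between libraries.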

Additional observations from a re-analysis of the deposited data

Results flagged for a closer look

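Single libraries lay far from the rest of their group in 6 of 120 groups of values tested by Dixon's test, where chance flags about 1 in 20. Smad6 was 1.80 normalized counts in mouse 1-week tibia PZ replicate 2 (others 40.4 to 60.9), and Id3 was 774.7 in mouse phalanx HZ replicate 5 (others 1285 to 1360.3). In the rat 4-week tibia, Bmpr1b was 2.79 in PZ replicate 2 (others 18.7 to 33.1) and 6.31 in HZ replicate 1 (others 0), Smad5 was 2019 in PZ replicate 3 (others 1761 to 1827), and Smad6 was 23.7 in PZ replicate 2 (others 5.80 to 8.00).

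The zone difference itself differed between growth plates by an interaction term in limma for 4 values. In the mouse, the HZ minus PZ difference was larger in the phalanx than in the 1-week tibia for Acvr1 (0.96, adjusted p = 0.046) and Id3 (1.38, adjusted p = 0.0096). In the rat, that of Smad1 was above the 1-week tibia value by 1.03 in the phalanx (adjusted p = 0.0018) and by 0.83 at 4 weeks (adjusted p = 0.028). All 4 share the 1-week tibia libraries of their species.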

How the results depend on the processing

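The members had 15 zone, 2 age, 3 bone and 2 interaction calls in the mouse and 13, 4, 7 and 2 in the rat. Of these 48 calls, 27 were kept without any 1 library and under all 10 settings without markers, 14 were lost by leaving out a library and 19 under at least 1 such setting. Of 180 values in all, 23 that were not called became so, 16 by leaving out a library and 15 under a setting without markers. With a marker covariate 41 calls were lost. With marrow marker covariates the mouse had 4 zone, 0 age and 1 interaction calls and the rat 3 zone, 0 age, 1 bone and 1 interaction calls. The rat interaction call was new (Smad5, phalanx against 1-week tibia), as was the rat zone call of Smad5 in the 1-week tibia. Neither was called in the main fit. The 3 mouse bone calls (Acvr1, Id2 and Id3 higher in the phalanx HZ) were kept with either marker covariate, as was Id2 in the rat HZ. With the endothelial covariate the zone calls were 3 in the mouse and 2 in the rat. The mouse age calls were 1 with no filter, 4 with only the groups compared, 1 under quantile normalization and 5 with array weights. The mouse interaction calls were 1 each with only the groups compared, median centring, array weights and voom. The rat bone calls were 4 under quantile normalization and 4 under median centring, the latter with Smad5 lower in the HZ as a new call. Directions turned for mouse Smad1 with age in the HZ (0.37 with marrow markers), rat Smad5 with age in the PZ (0.039 with marrow markers) and mouse Bmpr2 between zones of the 1-week tibia (-0.17 with endothelial markers). The cause was not tested. Leaving out 1 library gave 13 to 16 zone, 1 to 3 age, 3 to 4 bone and 1 to 2 interaction calls in the mouse, and 12 to 14, 4 to 6, 4 to 8 and 1 to 3 in the rat. The labels number replicates in each group, and the main fit did not take the numbers as pairs. Same-numbered PZ and HZ libraries correlated at -0.0098 to 0.286 in their deviations from the group means. In the mouse each library correlated best with its own number in 5 of 5, 5 of 5 and 3 of 4 pairs, and in the rat in 1, 2 and 4 of 5. A pairing by number can thus not be set aside in the mouse, and the main fit leaves it out. With replicate number as a block the calls were 12 zone, 4 age, 3 bone and 1 interaction in the mouse and 12, 4, 5 and 2 in the rat. Bmpr1b was at 0 in 4 mouse and 4 rat libraries and Smad6 in 1 rat library.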
